A study of Mus musculus with 3 samples.

Results

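Conventional dendritic cells (cDCs) of mouse liver were examined in single-cell RNA sequencing libraries of whole liver, in which each transcript molecule is counted once through a unique molecular identifier (UMI). A barcode was taken as a cDC when at most 30% of its UMIs were mitochondrial, when it held at least 2 UMIs of Flt3, Xcr1, Clec9a, Cd209a and Zbtb46 together and at least 10 UMIs of the major histocompatibility complex (MHC) class II genes H2-Aa, H2-Ab1, H2-Eb1 and Cd74 together, and when it held no UMI of Siglech, Cd79a, Cd3e, Clec4f or Treml4. These genes mark plasmacytoid dendritic cells, B cells, T cells, Kupffer cells and nonclassical monocytes, in that order. In all, 173 of 36990 barcodes met the rule, which was 0.468% of the cells. The control library gave 80 cDCs, the high-fat diet library 72 and the carbon tetrachloride (CCl4) library 21.

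All mice were wild-type C57BL/6J males, 8 weeks old when the treatments began, and the cells of 2 mice were pooled into each library, so that there was 1 library per condition and 6 mice in all. Control mice were untreated. The high-fat diet group ate chow with 60% of its calories from fat for 4 months. The CCl4 group, a chemical model of liver fibrosis, ate ordinary chow for 3 months and then received 0.1 mL of 10% CCl4 by intraperitoneal injection 2 times per week for 4 weeks. Livers were perfused with collagenase, and hepatocytes and Percoll-purified nonparenchymal cells were mixed in equal parts before loading. No sort for immune cells was made, so the share of any type depends on this mixing and on survival through dissociation, and neither pooled mouse can be told apart from the other.

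Dendritic cells take up antigen and show it to T cells. Among cDCs, the type 1 cell (cDC1) depends on the transcription factors Irf8 and Batf3, carries the chemokine receptor Xcr1 and the dead-cell receptor Clec9a, and is known for presenting captured antigen on MHC class I to CD8 T cells. The type 2 cell (cDC2) is more varied, carries C-type lectins such as Cd209a and Clec10a, and is known for presenting antigen on MHC class II to CD4 T cells. Flt3 is the receptor for the growth factor that both types need, and Zbtb46 is a transcription factor shared by cDCs. In liver, cDCs lie among Kupffer cells and blood-derived monocytes, and cells that arise from monocytes can also carry Cd209a and class II genes.

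The 80 control cDCs held 426305 UMIs, the 72 high-fat diet cDCs 229858 and the 21 CCl4 cDCs 55297. Their median depth was 4561, 2915 and 2404 UMIs per cell, with 2038, 1393 and 1237 genes detected at the median, and no cDC held fewer than 1692 UMIs. All barcodes of the 3 libraries together held 49613255, 34985786 and 34061186 UMIs, with medians of 2939, 2336 and 2173. Depth was thus highest in control and lowest in CCl4 in the cDCs as in all barcodes, so the main shares of cells with a UMI are also given after each cell was thinned to 1500 UMIs. Pairs of libraries shared 36 (control and high-fat diet), 49 (control and CCl4) and 52 (high-fat diet and CCl4) barcode sequences. Of these, 1 barcode, shared by high-fat diet and CCl4, was a cDC in 1 of the 2 libraries, and none was a cDC in both.

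The cells were chosen by the UMI counts of the genes in the rule, so these genes describe the cells and are not tested. In control, high-fat diet and CCl4, a Flt3 UMI was held by 49 of 80, 21 of 72 and 6 of 21 cDCs, and a Cd209a UMI by 41, 61 and 17. Clec9a was detected in 23, 6 and 3 cells, Xcr1 in 9, 8 and 1, and Zbtb46 in 20, 5 and 3. After thinning, the shares were 28.3%, 16.2% and 15.3% for Flt3, 36.2%, 66.7% and 70.03% for Cd209a, 13.2%, 4.63% and 7.67% for Clec9a, 6.04%, 6.52% and 2.04% for Xcr1 and 8.85%, 3.39% and 6.76% for Zbtb46. Cd209a was thus the gene that placed most cells in the class under both treatments. B cells (at least 2 Cd79a UMIs) served as cells that should lack these genes. A Cd209a UMI was held by 0.319% of 627 control, 0.408% of 245 high-fat diet and 0.8% of 125 CCl4 B cells, at median depths of 1991, 2740 and 1970 UMIs, and Xcr1 had no UMI in any of them. H2-Ab1 was detected in 79 of 80, 72 of 72 and 21 of 21 cDCs, and Cd74 in every cDC. All 5 markers that define the label, Flt3, Xcr1, Clec9a, Cd209a and H2-Ab1, were therefore present in each library. On GRCm38 with the GENCODE M21 annotation, Flt3 spans chr5:147330741-147400489 on the minus strand, Xcr1 chr9:123852315-123862029 (minus), Clec9a chr6:129408862-129424763 (plus), Cd209a chr8:3743397-3748984 (minus) and Zbtb46 chr2:181387762-181459426 (minus). Cd209a has near-identical neighbours in its gene family, so reads that fit several of them may have been left uncounted and its level is uncertain.

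At the threshold, 24 control, 30 high-fat diet and 15 CCl4 cDCs had exactly 2 UMIs of the 5 dendritic cell genes, and 31, 62 and 37 barcodes that met every other criterion had 1 UMI and stayed out. A total of 66, 6 and 5 barcodes met both UMI minimums but held a UMI of an excluded gene. In control, 55 of the 66 held Siglech.

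The cDC genes were not the only lineage genes in these cells. The classical monocyte list gave 1322 UMIs in control, 591 in high-fat diet and 102 in CCl4 cDCs, with Plac8 its most abundant gene and Chil3 and Vcan at 0 in all 3. The plasmacytoid list gave 360, 105 and 40 UMIs, with Bst2 its most abundant gene and Klk1 at 0 in all 3. The nonclassical monocyte list gave 395, 124 and 17 UMIs, in 76 of 80, 53 of 72 and 10 of 21 cDCs. The natural killer cell list gave 100, 20 and 8 UMIs, in 31, 16 and 5 cDCs. The erythroid list gave 99, 427 and 6 UMIs, of which 227 in high-fat diet lay in 1 cell. Some signals came from single cells. In high-fat diet, 1407 of the 1469 UMIs of the B cell list were Igkc UMIs of 1 cDC, while Cd79a, Ighd and Pax5 were at 0, and 521 of the 802 UMIs of the neutrophil list lay in 1 cell. In control, 154 of the 156 UMIs of the stromal list, mostly Acta2, lay in 1 cell. The Kupffer cell list gave 132 UMIs in 8 control cells, 72 of them in 1, with Clec4f, Timd4 and Marco at 0. Every cDC also carried at least 10 UMIs of 12 hepatocyte genes, which summed to 20399 counts per 1000000 UMIs (CPM) in control, 84657 in high-fat diet and 107275 in CCl4 cDCs. The same 12 genes stood at 20569, 80588 and 110508 CPM in classical monocytes. The part of these signals in the results that follow was not tested except where a value without such cells is given.

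The cDCs formed 0.714% of control barcodes with at most 30% mitochondrial UMIs (80 of 11207, exact Clopper-Pearson 95% interval 0.566 to 0.888), 0.555% in high-fat diet (72 of 12983, 0.434 to 0.698) and 0.165% in CCl4 (21 of 12761, 0.102 to 0.251). The CCl4 interval did not overlap the other two, whereas those of control and high-fat diet overlapped. Intervals here and elsewhere cover counting error only, since 1 library per condition leaves no replicate and hence no test. Among barcodes with a Ptprc UMI, the pan-leukocyte gene, cDCs made up 1.41%, 1.37% and 0.574%. With every cell thinned to 1500 UMIs, the expected shares were 0.284%, 0.260% and 0.0824%, in the same order. Of the 21 CCl4 cDCs 15 lay at the minimum of 2 dendritic cell UMIs, and with at least 3 the shares were 0.4997%, 0.324% (42 cells) and 0.0470% (6 cells). A lower share can stand for fewer cells or for less RNA per cell, and these cannot be told apart here.

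Of the 173 cells, 34 held Xcr1 or Clec9a and no Cd209a, 113 held Cd209a and neither Xcr1 nor Clec9a, 6 held both and 20 held none of the 3. In control, 24 cells were Xcr1/Clec9a-positive and 39 Cd209a-positive. In high-fat diet the numbers were 8 and 58, and in CCl4 2 and 16. The Xcr1/Clec9a-positive share of the cells in either subset was 38.1% in control (exact interval 26.1 to 51.2), 12.1% in high-fat diet (5.38 to 22.5) and 11.1% in CCl4 (1.38 to 34.7). The intervals of control and high-fat diet did not overlap, and that of CCl4 overlapped both. After thinning the shares were 24.9%, 9.74% and 7.31%.

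Lists of cDC1 genes (18 genes such as Irf8, Batf3, Naaa and Rab7b) and cDC2 genes (16 genes such as Clec10a, Klf4 and S100a4) that hold none of the genes of the rule were then counted in each cell. In control, Xcr1/Clec9a-positive cells held a median of 6.14 cDC1-list UMIs per 1000 UMIs (lowest 0.447, highest 11.0) and Cd209a-positive cells 0.875 (lowest 0, highest 5.29). In high-fat diet the medians were 4.31 (2.41 to 9.08) and 0.705 (0 to 3.15). The 2 Xcr1/Clec9a-positive CCl4 cells held 2.92 and 3.72, and the 16 Cd209a-positive cells a median of 0.805 (0 to 3.68). The subsets thus differed at the median in each library, and their ranges overlapped in each. The cDC2 list ran the other way, with medians of 0.996 and 1.90 in control, 0.266 and 1.55 in high-fat diet and 0.143 and 1.33 in CCl4 for Xcr1/Clec9a-positive and Cd209a-positive cells. The 15 control cells with none of the 3 genes spanned nearly the whole cDC1-list range, from 0.228 to 10.4 (median 0.985).

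**Figure D1:**
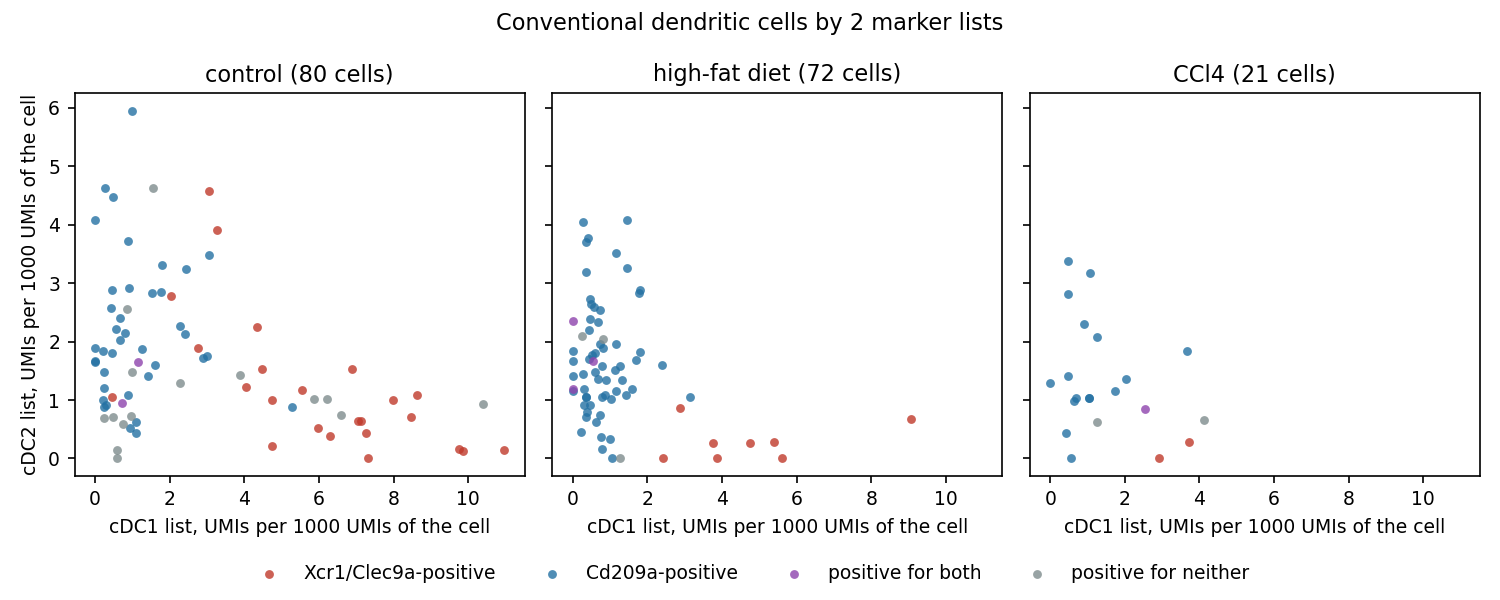
Each point is 1 cDC, placed by its UMIs of the cDC1 list (horizontal axis) and of the cDC2 list (vertical axis) per 1000 UMIs of the cell, with 1 panel per library and colours for the subset. Xcr1/Clec9a-positive cells lie to the right and low, with a control median of 6.14 on the horizontal axis against 0.875 for Cd209a-positive cells, and grey cells with none of the 3 genes lie on both sides.

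To ask which genes set the Xcr1/Clec9a-positive cells apart from the Cd209a-positive cells, UMIs were summed per library and subset and compared in edgeR's quasi-likelihood test with the library as a block, since both subsets came from the same 3 libraries. Of 1525 genes tested, 57 (3.74%) passed a Benjamini-Hochberg adjusted p of 0.05, of which 21 (1.38%) were higher and 36 (2.36%) lower in Xcr1/Clec9a-positive cells. Xcr1, Clec9a and Cd209a were left out of these counts, because they chose the cells. The 3 libraries are of different conditions, so the p-values measure how evenly the difference held across control, high-fat diet and CCl4, and the CCl4 sum of Xcr1/Clec9a-positive cells rests on 2 cells and 6239 UMIs.

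Genes of the cDC1 program were higher in the Xcr1/Clec9a-positive cells. All 7 of the 18 cDC1-list genes that could be tested rose, with a median log2 fold change of 3.05 against -0.08 over all genes tested. Genes such as Rab7b and Batf3 could pass the low-count filter through the Xcr1/Clec9a-positive sums alone. The filter thus favours this direction, and the count and median describe the genes and test nothing. Irf8, the transcription factor that cDC1s need, stood at 1335 CPM in control, 1286 in high-fat diet and 321 in CCl4 Xcr1/Clec9a-positive cells and at 168, 66.5 and 206 CPM in Cd209a-positive cells (log2 fold change 3.05 ± 0.41 (SE), adjusted p = 3.69e-11 by edgeR). It was higher in each library and the groups did not overlap, but the CCl4 value came from 2 UMIs and the adjusted p reached 0.397 under other settings. Batf3, its partner, measured 125, 203 and 160 CPM against 31.4, 44.3 and 25.7 CPM (2.02 ± 0.52, adjusted p = 0.00423).

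Rab7b, a small GTPase of late endosomes, stood at 237, 135 and 160 CPM in Xcr1/Clec9a-positive cells and at 0, 5.54 and 25.7 CPM in Cd209a-positive cells of control, high-fat diet and CCl4 (4.94 ± 0.67, adjusted p = 6.02e-11). Wdfy4, which cDC1s need to cross-present antigen taken up from other cells, measured 543, 474 and 321 CPM against 115, 5.54 and 51.4 CPM (2.93 ± 0.46, adjusted p = 2.63e-08). In both genes every Xcr1/Clec9a-positive sum lay above every Cd209a-positive sum. In CCl4, however, Wdfy4 rested on 2 UMIs in each subset, and Rab7b and Batf3 on fewer. Ppt1, a lysosomal thioesterase, rose by 3.45 ± 0.47 on the log2 scale, Naaa, which breaks down N-acylethanolamines in the lysosome, by 3.05 ± 0.45, and Psap, the saposin precursor, by 1.28 ± 0.32. Cst3, the cysteine protease inhibitor cystatin C, stood at 8465, 7273 and 5129 CPM against 2121, 837 and 1028 CPM (2.33 ± 0.35, adjusted p = 4.71e-09). Aif1, Ezh2, a histone methyltransferase, and Slc8b1, a mitochondrial ion exchanger, rose by 3.19, 2.91 and 2.50. Id2, a transcription factor of the cDC lineage, rose by 1.13 ± 0.35 (adjusted p = 0.0319). Gm43914, also among the 21, is annotated within Clec9a on the same strand and is therefore not independent of the rule.

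Genes lower in Xcr1/Clec9a-positive cells, that is, higher in Cd209a-positive cells, were led by Tnip3, which codes for an inhibitor of NF-kB signalling. It measured 20.9, 0 and 0 CPM in Xcr1/Clec9a-positive cells and 738, 416 and 283 CPM in Cd209a-positive cells (-5.25 ± 0.68, adjusted p = 5.92e-12). Of the 16 cDC2-list genes, 3 could be tested and 2 of them, Clec10a and S100a4, passed, against 2.36% of all genes lower. Genes such as Clec10a could pass the low-count filter through the Cd209a-positive sums alone, so this count describes the genes and tests nothing. Clec10a, a galactose-binding lectin, stood at 6.96, 0 and 0 CPM against 152, 205 and 129 CPM (-4.59 ± 0.89, adjusted p = 1.9e-05). S100a4, a calcium-binding protein of motile cells, stood at 90.4, 33.8 and 0 CPM against 639, 626 and 874 CPM (-3.22 ± 0.51, adjusted p = 2.88e-08). The groups did not overlap in any of these genes, but each CCl4 value of 0 in Xcr1/Clec9a-positive cells rests on a sum of 6239 UMIs. Klf4, the third cDC2-list gene tested, differed by -0.42 ± 0.45 (adjusted p = 0.802).

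Of 7 cytokine and chemokine genes tested, 3 were lower in Xcr1/Clec9a-positive cells and none was higher, against 2.36% of all genes lower. Il1b, the interleukin-1β gene, measured 647, 541 and 0 CPM in Xcr1/Clec9a-positive cells and 1692, 1463 and 977 CPM in Cd209a-positive cells (-1.61 ± 0.35, adjusted p = 0.000326), and Ccl5 fell by 2.86 ± 0.58. The third, Ccl9, overlapped between the subsets and lost its call in 6 of 7 alternatives. Ccl4, a chemokine for T cells and monocytes, differed by 0.10 ± 0.33 (adjusted p = 0.957). Of 3 interferon-stimulated genes, 2 were lower. Ifitm3, which blocks entry of viruses, stood at 424, 507 and 481 CPM against 2058, 2133 and 2493 CPM (-2.30 ± 0.35, adjusted p = 5.89e-09), with all 3 Xcr1/Clec9a-positive values below all Cd209a-positive ones, and Ifi27l2a fell by 2.14 ± 0.49. Cybb, the catalytic subunit of the phagocyte NADPH oxidase, fell by 2.51, Klrd1, a lectin receptor chain best known from natural killer cells, by 3.29, and Fcer1g, the signalling chain of Fc receptors, by 2.16. None of the 3 monocyte genes and 2 plasmacytoid genes tested passed in either direction, nor did any of the 12 hepatocyte genes, whose median log2 fold change was -0.73.

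The number of calls moved with the libraries used, to 15 without control, 24 without high-fat diet and 20 without CCl4, and to 8 without the library block. Rab7b, Ppt1, Tnip3, S100a4 and Ifitm3 passed in every alternative in which they were tested. Irf8, Cst3 and Naaa did not pass without the high-fat diet library, and Clec10a, Ezh2 and Slc8b1 did not without CCl4. Batf3, Wdfy4, Psap, Il1b, Ccl5, Ccl9, Ifi27l2a, Cybb and Fcer1g did not pass in either of these fits. Id2 and Ifi30 did not pass with any of the 3 left out.

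**Figure D2:**
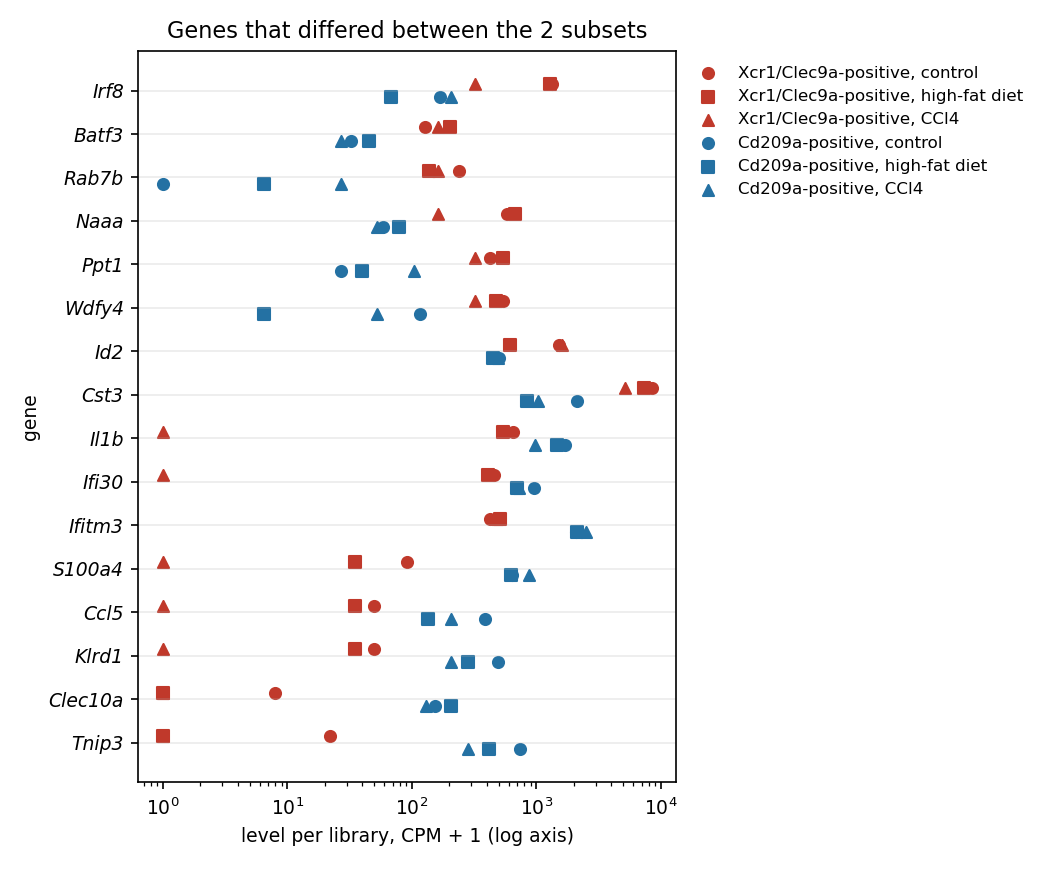
Levels of named genes in each library (CPM + 1 on a log axis), in red for Xcr1/Clec9a-positive and in blue for Cd209a-positive cells, with a circle for control, a square for high-fat diet and a triangle for CCl4. From Irf8 to Cst3 the red points lie higher and from Il1b to Tnip3 the blue points do. Points at the left edge are sums of 0 UMIs.

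Class II presentation is the shared task of cDCs. The class II genes of the rule rest on chromosome 17 apart from Cd74, and loading peptide onto class II further needs H2-DM (H2-DMa, H2-DMb1, H2-DMb2), its regulator H2-O (H2-Oa, H2-Ob), the proteases Ctss and Lgmn and the reductase Ifi30, while Ciita is the coactivator known for switching on the class II genes themselves and the H2-DM genes. Ciita acts through proteins bound at promoter elements known as the X box and the Y box. The promoters of H2-Eb1, one of the rule's genes, and of 4 genes outside the rule are shown as examples of class II and class II loading genes. The windows are the 130 bases before the RefSeq start site on GRCm38.p6, chromosome 17, plus strand: chr17:34305737-34305866, chr17:34153061-34153190, chr17:34145119-34145248, chr17:34092249-34092378 and chr17:34238775-34238904, in the order printed. Capitals mark the letters searched for the X box, which are AAC, any 2 bases and ATGATG, and for the Y box, TGATTGG, and the matches do not overlap here.
H2-Eb1: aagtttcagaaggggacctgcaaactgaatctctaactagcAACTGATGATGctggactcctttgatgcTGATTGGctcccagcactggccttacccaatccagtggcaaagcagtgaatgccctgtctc
H2-DMb1: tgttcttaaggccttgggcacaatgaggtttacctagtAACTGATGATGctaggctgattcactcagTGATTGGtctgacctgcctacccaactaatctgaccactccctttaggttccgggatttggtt
H2-DMb2: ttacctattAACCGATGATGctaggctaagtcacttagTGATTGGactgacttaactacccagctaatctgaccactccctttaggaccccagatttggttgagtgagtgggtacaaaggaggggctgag
H2-Oa: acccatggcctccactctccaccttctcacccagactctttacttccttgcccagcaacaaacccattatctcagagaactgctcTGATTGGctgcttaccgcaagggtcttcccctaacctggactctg
H2-Ob: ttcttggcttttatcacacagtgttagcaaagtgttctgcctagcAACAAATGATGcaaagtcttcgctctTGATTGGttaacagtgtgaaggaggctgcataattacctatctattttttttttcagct

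In H2-Eb1 the X letters began 89 bases and the Y letters 61 bases before the start, in H2-DMb1 92 and 63, in H2-DMb2 121 and 92 and in H2-Ob 85 and 59. H2-Oa had the Y letters at 45 bases and no X letters. Among 32851 RefSeq promoters of 300 bases, 24 held the X letters on the gene's strand (0.0731%; 45, or 0.137%, on either strand) and 1318 the Y letters (4.01%; 2568, or 7.82%, on either strand). Both stood on the gene's strand in 4 promoters (0.0122%), those of H2-DMb1, H2-DMb2, H2-Eb1 and H2-Ob. The letters were chosen with class II promoters in view, so these shares describe the letters and test nothing. Of 8 class II genes looked up, 7 had a RefSeq entry, all but H2-Ab1. H2-Aa held the Y letters and not the X letters, and H2-DMa, with 2 entries, held neither.

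Of 4 class II pathway genes that could be tested between the subsets, 1 passed, against 3.74% of all genes. That call was lost in 7 of 10 alternatives. Ifi30, a thiol reductase of the lysosome, was lower in Xcr1/Clec9a-positive cells, at 452, 406 and 0 CPM against 958, 693 and 720 CPM (-1.20 ± 0.38, adjusted p = 0.0463). H2-DMa (-0.09 ± 0.41), H2-DMb1 (0.32 ± 0.41) and Ctss (-0.88 ± 0.42) did not pass. None of 10 MHC class I pathway genes passed, with a median of 0.44.

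The cDCs were next set against plasmacytoid dendritic cells (pDCs), the interferon-producing cells that share the Flt3-dependent origin, to ask where these kinds of dendritic cell part. The 337 pDCs were barcodes with at least 2 Siglech UMIs and none of Cd79a, Cd3e, Clec4f or Treml4 (180, 53 and 104 in control, high-fat diet and CCl4). Of 3907 genes, 701 (17.9%) passed, 416 (10.6%) higher and 285 (7.29%) lower in cDCs. With library size alone in place of TMM scaling the split was 328 higher and 359 lower, so the balance of directions rests on the scaling. The genes of either rule are not counted. Both kinds could hold UMIs of the other's markers: 24.4% of control pDCs held a Clec9a UMI and 23.9% a Cd209a UMI, against 28.8% and 51.3% of control cDCs, at median depths of 3716 and 4561. After thinning these shares were 10.45% and 14.6% of control pDCs against 13.2% and 36.2% of control cDCs.

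All 9 plasmacytoid genes tested were lower in cDCs, with a median log2 fold change of -4.38 against 0.02 over all genes. Genes such as Klk1, with no UMI in any cDC, could pass the low-count filter through the pDC sums alone. The filter thus favours this direction, and the count and median describe the genes and test nothing. Tcf4, the transcription factor that makes pDCs, stood at 321, 104 and 199 CPM in cDCs of control, high-fat diet and CCl4 and at 3178, 1937 and 1397 CPM in pDCs (-3.38 ± 0.22, adjusted p = 6.86e-12). The log2 fold change was -6.39 ± 0.30 for Ly6d, -5.33 ± 0.31 for Ccr9, a gut-homing chemokine receptor, -4.09 ± 0.27 for Runx2 and -3.80 ± 0.40 for Spib. Klk1 and Cd8b1 had no UMI in any cDC, which put them at least 64.0-fold and 29.0-fold lower when 3 counts over all cDCs are taken as the floor. Irf8, which both lineages need, was lower in cDCs, at 662, 218 and 344 CPM against 2774, 2069 and 1211 CPM (-2.30 ± 0.22, adjusted p = 6.11e-09).

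On the cDC side, Batf3 stood at 84.4, 65.3 and 54.3 CPM against 3.84, 6.94 and 3.73 CPM in pDCs (4.16 ± 0.59, adjusted p = 4.32e-06). Tnip3 rose by 7.56 ± 0.44, Cst3 by 2.60 ± 0.19, S100a4 by 4.87 ± 0.29, Naaa by 4.76 ± 0.40 and Id2 by 1.70 ± 0.22. Of 8 cDC1-list genes tested, 5 were higher and 1, Irf8, lower, against 10.6% and 7.29% of all genes. Because the rule asked for 2 dendritic cell UMIs of cDCs and not of pDCs, genes that move with those are linked to the choice of cells. Cd83, which stabilises class II and marks activated dendritic cells, measured 331, 226 and 181 CPM against 25.6, 0 and 3.73 CPM (4.21 ± 0.33, adjusted p = 2.52e-10). Among cytokines and chemokines, 5 of 9 were higher, against 10.6% of all genes. They were led by Cxcl16 (5.54 ± 0.65), a chemokine and scavenger receptor, and Il1b (1102, 1336 and 760 CPM against 210, 83.3 and 11.2 CPM, 3.48 ± 0.31). Cxcl2 (1.21), another of the 5, lost its call in 6 of 10 alternatives. Ccl4 alone in this list was lower (-1.46 ± 0.22), and its values overlapped between the classes. Of 17 immediate-early and heat shock genes, whose levels can move with cell dissociation, 10 were higher in cDCs and none lower. The shares of all genes were 10.6% and 7.29%. Dusp1 stood at 1.62 and Fos at 0.94. None of the 12 hepatocyte genes passed (median -0.19).

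The class II pathway outside the rule was higher in cDCs. Of 8 genes tested, 7 rose and none fell, against 10.6% and 7.29% of all genes, with a median of 1.58. Ciita stood at 124, 52.2 and 54.3 CPM against 25.6, 0 and 11.2 CPM in pDCs (2.56 ± 0.41, adjusted p = 2.62e-05). H2-DMb1 rose by 2.05 ± 0.25, H2-Ob by 3.57 ± 0.52, Ifi30 by 2.24 ± 0.22 and H2-DMa by 1.12 ± 0.22. H2-Oa differed by 0.72 ± 0.41 and did not pass (adjusted p = 0.291). Because the rule asked for 10 class II UMIs of every cDC and set no such minimum for pDCs, genes that move with those 4 are linked to the choice of cells, and these calls are a description of the cells so chosen. None of 13 MHC class I pathway genes passed. Without control the comparison with pDCs gave 330 calls, without high-fat diet 746 and without CCl4 988, and Batf3 did not pass without control. Without the library block 138 genes passed, and Ciita, H2-DMa, Ccl4, Dusp1 and Fos were not among them. Of the 7 class II pathway calls, Lgmn (0.92) lost its call in 9 of 10 alternatives, without control and without high-fat diet among them, and Ctss (0.70) in 5 of 10, without high-fat diet among them.

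Classical monocytes were compared next, because cells that arise from monocytes can also carry Cd209a and class II genes. The 483 monocytes (166, 264 and 53) held at least 2 UMIs of Ccr2, Vcan and F13a1 together, at least 1 of Csf1r, none of the 5 dendritic cell genes and none of the excluded lineage genes. Of 4756 genes, 369 (7.76%) passed, 189 (3.97%) higher and 180 (3.78%) lower in cDCs. Of 8 monocyte-list genes tested, 7 were lower in cDCs, with a median of -2.35 against -0.0036 over all genes. Genes such as Chil3 could pass the low-count filter through the monocyte sums alone, so this count and median describe the genes and test nothing. Lyz2, lysozyme, stood at 570, 553 and 452 CPM in cDCs and at 5222, 6452 and 5664 CPM in monocytes (-3.38 ± 0.17, adjusted p = 2.07e-25). Chil3 had no UMI in any cDC and 778, 843 and 314 CPM in monocytes, which put it at least 183-fold lower. Ly6c2, the surface marker of classical monocytes, fell by 2.99 ± 0.27, Thbs1 by 5.33 ± 0.32 and Fcgr3, an Fc receptor, by 3.63 ± 0.44. Ms4a4c was the list's gene that did not pass (-0.62 ± 0.26, adjusted p = 0.176).

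Itgax, the gene of the dendritic cell integrin CD11c, had the largest rise among genes that passed with the same sign in all 3 libraries, at 113, 82.7 and 72.3 CPM in cDCs against 0.892, 1.19 and 0 CPM in monocytes (6.39 ± 0.61, adjusted p = 3.72e-13). Klrd1 rose by 6.32 ± 0.38, P2ry10 by 5.11 ± 0.48, Tbc1d4 by 4.23 ± 0.40 and Ccnd1, cyclin D1, by 3.34 ± 0.26. Klrk1, the 1 gene of the natural killer cell list that could be tested, also rose, by 3.73. All 8 cDC1-list genes tested rose, with a median of 1.32, against 3.97% of all genes higher and a median of -0.0036. Because the monocyte rule allowed no UMI of the 5 dendritic cell genes, genes that move with those are linked to the choice of cells. The count and median describe the cells so chosen. Batf3 rose by 2.43 ± 0.42 and Wdfy4 by 2.18 ± 0.30, and their values did not overlap between the classes. Irf8 rose by 0.82 ± 0.22, Ppt1 by 0.83 ± 0.26 and Naaa by 0.80 ± 0.26, but these 3 turned negative and no longer passed when only Cd209a-positive cells stood for the cDCs. Clec10a, at 79.8, 178 and 90.4 CPM against 17.8, 8.35 and 7.13 CPM, rose by 3.18 ± 0.39.

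Against monocytes the class II pathway again stood higher, with 7 of 10 genes raised and none lowered (median 2.21). Of all genes, 3.97% were higher and 3.78% lower. H2-DMb1 measured 317, 257 and 181 CPM against 62.5, 56.0 and 35.6 CPM (2.34 ± 0.25, adjusted p = 2.64e-11). H2-Oa, part of the H2-O brake on peptide loading, measured 39.9, 60.9 and 72.3 CPM against 2.68, 3.58 and 7.13 CPM (3.86 ± 0.65, adjusted p = 7.35e-06), and H2-Ob rose by 3.87 ± 0.54. H2-DMb2 rose by 3.33 ± 0.66, though reads can be shared with its near copy H2-DMb1. Ciita rose by 3.07 ± 0.42 and Ifi30 by 0.69 ± 0.20. Ctss, at -0.48 ± 0.20, did not pass (adjusted p = 0.183). The same link to the rule holds here as against pDCs.

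Of 11 cytokine and chemokine genes, 4 were higher in cDCs and 3 lower, against 3.97% and 3.78% of all genes. Cxcl16 rose by 2.40 ± 0.37, Ccl5 by 1.41 ± 0.29, Ccl4 by 1.05 ± 0.19 and Il1b by 0.59 ± 0.18. Cxcl2, a neutrophil chemokine, fell by 2.31 ± 0.20, Ccl6 by 1.20 ± 0.22 and Ccl9 by 0.73 ± 0.23. Of these calls, that of Ccl9 was lost in 9 of 10 alternatives, that of Il1b in 7 of 10 and that of Ccl5 in 5 of 10. Of 5 pattern recognition genes, 3 were lower, among them the lipopolysaccharide co-receptor Cd14 (103, 100.1 and 0 CPM against 543, 450 and 207 CPM, -2.34 ± 0.26), Tlr2 (-1.90 ± 0.32) and Clec7a (-0.81 ± 0.26). Several calls came from few cells. Igkc (3.90), S100a8 (1.57), S100a9 (1.49) and Retnlg (2.03) counted as higher through the high-fat diet library, where 1407 of the 1443 Igkc UMIs lay in 1 cDC, and S100a8 and S100a9 stood at 0 in CCl4 cDCs. Without the high-fat diet library S100a8 was at -0.47 and S100a9 at -0.39, and neither passed. Without control 207 genes passed, without high-fat diet 213, without CCl4 499 and without the library block 24, and Irf8, Ppt1, Naaa, Il1b, Ccl5, Ccl9, Ifi30 and Clec7a each lost the call in 1 or more of the fits with a library left out.

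**Figure D3:**
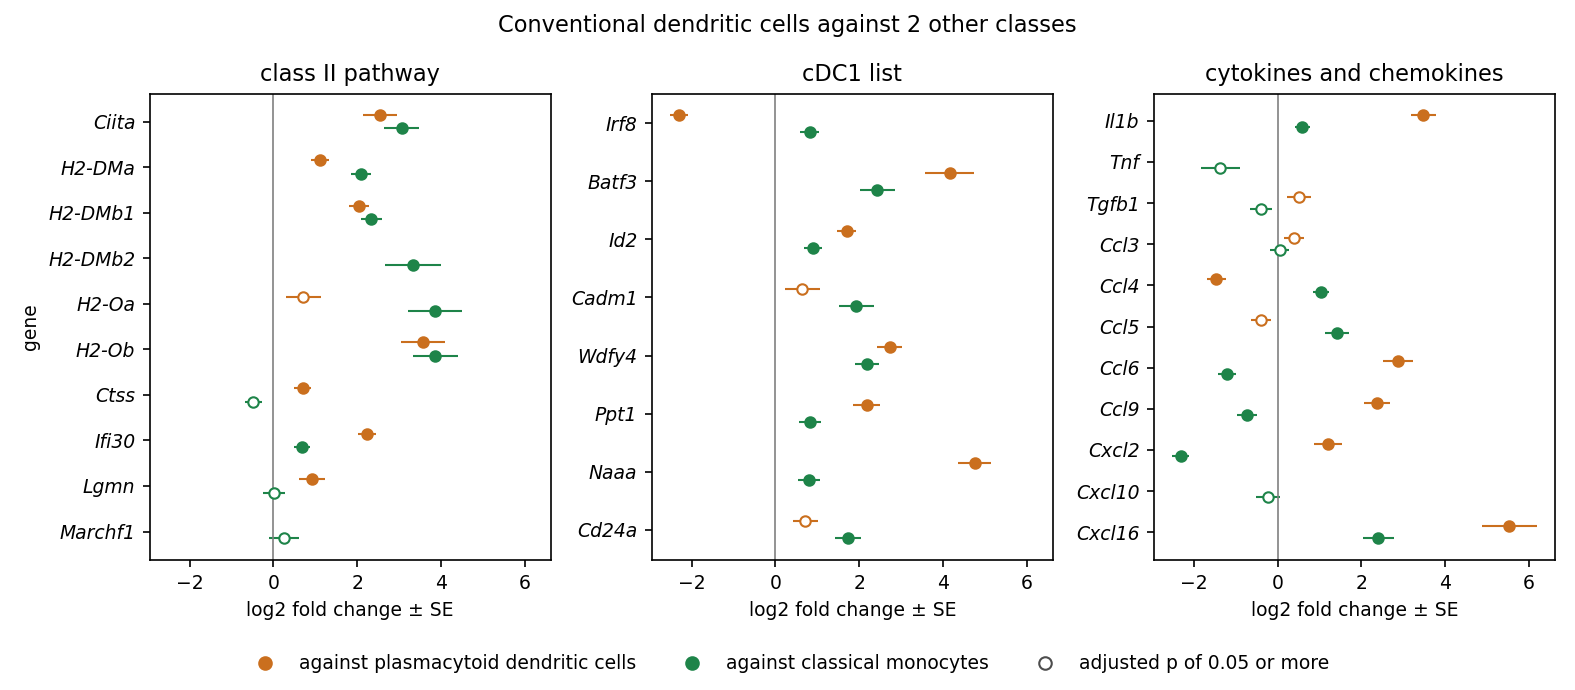
Log2 fold changes (horizontal axis, bars ± SE) of cDCs against pDCs in orange and against classical monocytes in green for the tested genes of the class II pathway, the cDC1 list and the cytokines and chemokines, with open symbols for an adjusted p of 0.05 or more. Class II genes lie at or right of 0 in nearly every case, Irf8 is left of 0 against pDCs (-2.30) and right of it against monocytes (0.82), and Ccl4 also changes side.

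Cells with UMIs of cell cycle genes were mostly in the control library. A UMI of Mki67 or Top2a, genes of dividing cells, was held by 19 of 80 control cDCs (23.8%, exact interval 15.0 to 34.6), 5 of 72 high-fat diet cDCs (6.94%, 2.29 to 15.5) and 2 of 21 CCl4 cDCs (9.52%, 1.18 to 30.4). After thinning the shares were 14.8%, 3.31% and 7.62%. In control, 10 of 24 Xcr1/Clec9a-positive cells held such a UMI (41.7%, 22.1 to 63.4) and 7 of 39 Cd209a-positive cells (17.9%, 7.54 to 33.5), with overlapping intervals and thinned shares of 26.2% and 12.9%. Of 6 cell cycle genes tested between the subsets none passed, with a median of 1.14 towards Xcr1/Clec9a-positive cells. In classical monocytes the shares were 34.9% in control, 2.65% in high-fat diet and 1.89% in CCl4. In pDCs the shares were 5.00%, 3.77% and 1.92%, and in B cells 3.67%, 4.49% and 3.20%.

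**Figure D4:**
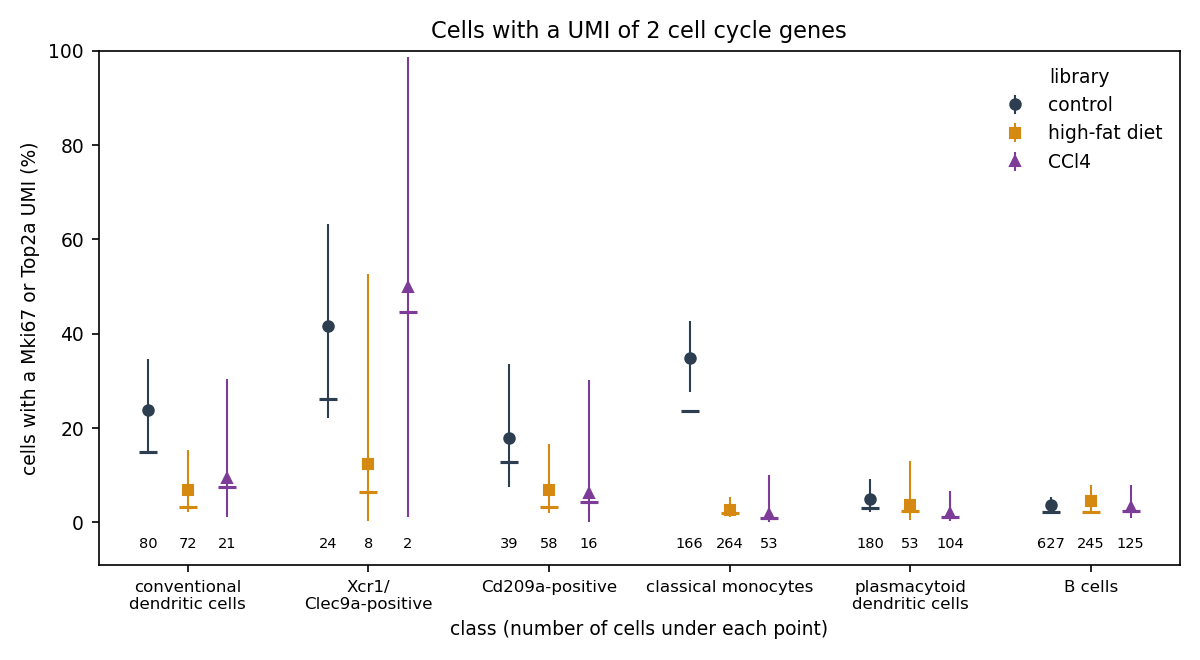
Share of cells with a Mki67 or Top2a UMI (vertical axis, %) in cDCs, their subsets and 3 other classes, by library, with exact 95% intervals, a dash for the share after thinning to 1500 UMIs and the number of cells under each point. Control cDCs (23.8%) and control monocytes (34.9%) stand above the same cells of the treated libraries, while pDCs and B cells lie at or below 5.00% in all 3.

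Levels of cDCs under each treatment were compared with control as ratios of CPM, with an exact interval for counting error and no test. A gene counted as past the fold when the ratio of CPM + 5 was 2 or more either way. In high-fat diet, 484 of 3837 genes (12.6%) were past the fold upwards and 812 (21.2%) downwards, and the median log2 ratio over all genes was -0.32. In CCl4, 369 of 3624 (10.2%) lay upwards and 1079 (29.8%) downwards, with a median of -0.46. Scaling without mitochondrial and hepatocyte genes moved these medians to -0.22 and -0.35. Ratios below are to be read against these medians and against the other classes of the same libraries, where many genes also moved: 937 genes were past the fold in high-fat diet monocytes, 1169 in B cells and 1216 in pDCs, and 1352, 1317 and 1517 in CCl4.

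Transcripts of hepatocytes were higher in cDCs of both treated libraries, and the genes named here were also higher in the other classes. Of the 12 hepatocyte genes, 11 were past the fold upwards in high-fat diet (median log2 ratio 1.47) and 9 in CCl4 (1.90). Acaa1b, a peroxisomal enzyme of fatty acid oxidation, stood at 28.1 CPM in control, 1048 in high-fat diet and 488 in CCl4 cDCs. The high-fat diet ratio was 37.2 (interval 20.9 to 73.1), with UMIs in 70 of 72 cells, and the ratio of CPM + 5 was 30.4 in monocytes, 13.3 in B cells and 31.4 in pDCs. Apoe, a lipid carrier made by hepatocytes and macrophages, stood at 1393, 8592 and 12352 CPM, ratios of 6.17 (5.62 to 6.77) and 8.86 (7.93 to 9.91), and was 4.64- and 6.94-fold higher in monocytes of the same libraries. Scd1, a fatty acid desaturase, was 15.6-fold higher in high-fat diet cDCs, and 20.4-fold in monocytes. Hamp2, a hepcidin gene, had 0 UMIs in control and 24 in CCl4 cDCs. Each of these genes was thus also higher in cells of other lineages of the same library.

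Fabp5, a fatty acid-binding protein of immune and epithelial cells, stood at 155 CPM in control cDCs and 844 in high-fat diet cDCs, a ratio of 5.45 (4.10 to 7.32), with UMIs in 36 of 80 and 65 of 72 cells. In monocytes, B cells and pDCs the ratio of CPM + 5 was 2.56, 1.97 and 2.50, and within Cd209a-positive cDCs it was 5.33. Control levels were 276, 337.9 and 261 CPM in monocytes, B cells and pDCs and high-fat diet levels 713, 670.5 and 659.6 CPM, so Fabp5 was higher in every class under the diet, and the larger cDC ratio went with a lower control level. In CCl4 cDCs Fabp5 had 0 UMIs, with an upper limit of 0.443 on the ratio, and it was also lower in monocytes, B cells and pDCs, with ratios of CPM + 5 of 0.551, 0.0947 and 0.229. Plin2, a lipid droplet coat protein, was 2.64-fold (1.84 to 3.82) and 3.00-fold (1.72 to 5.05) higher in high-fat diet and CCl4 cDCs, and the ratios of CPM + 5 were 1.65 and 1.74 in monocytes, 1.33 and 1.79 in B cells and 2.43 and 2.03 in pDCs. Clec10a was 2.24-fold higher in high-fat diet cDCs (79.8 and 178 CPM, 1.38 to 3.63), while the ratio of CPM + 5 was 0.584 in monocytes and 0.535 in pDCs. Within Cd209a-positive cells the ratio of CPM + 5 for Clec10a was 1.34. The part of the larger share of these cells in high-fat diet was not tested. That these ratios differ between the classes was not tested.

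Summed over all cDCs, genes of the cDC1 list were lower in high-fat diet. The summed level of the 18 genes of the list was 3049 CPM in control and 1305 CPM in high-fat diet. Of 11 tested, 6 were past the fold downwards, against 21.2% of all genes, and none upwards, with a median log2 ratio of -1.07. Rab7b, at 98.5 CPM in control and 21.8 CPM in high-fat diet, passed the low-count filter through control alone. A gene that passes in this way can only be lower in high-fat diet. The count and median of the cDC1 list therefore describe the genes and test nothing. Of 9 cDC2-list genes, 4 were past the fold downwards and 1 upwards, while the summed level of the list was 1536 CPM in control and 1475 CPM in high-fat diet. Irf8 stood at 662 CPM in control and 218 in high-fat diet cDCs, a ratio of 0.329 (0.238 to 0.446), and within Cd209a-positive cells the ratio of CPM + 5 was 0.414. Within Xcr1/Clec9a-positive cells Irf8 stood at 1335 CPM in control (24 cells) and 1286 CPM in high-fat diet (8 cells). In the same cells Wdfy4 stood at 543 and 474 CPM and Cst3 at 8465 and 7273 CPM, while Rab7b was lower and Batf3 higher in high-fat diet. Irf8 was also lower in monocytes (0.427, as CPM + 5), B cells (0.384) and pDCs (0.746). Wdfy4 had a ratio of 0.256 (0.142 to 0.433). Its ratio of CPM + 5 was 0.0877 within Cd209a-positive cells (22 UMIs in control and 1 in high-fat diet). It was 0.445 in monocytes, 0.317 in B cells and 0.562 in pDCs. Rab7b had a ratio of 0.221 (0.0682 to 0.557), with 1.02 in monocytes and 0.122 in pDCs (CPM + 5), and in Cd209a-positive cells it had 0 UMIs in control and 1 in high-fat diet. The share of Xcr1/Clec9a-positive cells was 38.1% in control and 12.1% in high-fat diet, and its part in the cDC values was not tested. Cst3 stood at 4579 and 1740 CPM (0.380, 0.340 to 0.423), with ratios of CPM + 5 of 0.396 within Cd209a-positive cells, 0.472 in monocytes, 1.02 in B cells and 0.527 in pDCs. Of 12 genes shared by cDCs and of 9 class II pathway genes, 3 each were past the fold downwards, shares to be read against the 21.2% of all genes. Ciita was among them (124 and 52.2 CPM, 0.420, 0.204 to 0.796), with ratios of CPM + 5 of 0.140 in B cells and 0.163 in pDCs, and was within the fold in monocytes at 0.8497.

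All 10 cell cycle genes tested were past the fold downwards in high-fat diet cDCs, against 21.2% of all genes, with a median log2 ratio of -3.29. Pclaf and Birc5, with 0 UMIs in high-fat diet, passed the low-count filter through control alone. A gene that passes in this way can only be lower in high-fat diet. The count and median therefore describe the genes and test nothing. Top2a had 76 UMIs in control and 1 in high-fat diet, Stmn1 134 and 2, Pclaf 90 and 0, and Birc5 44 and 0. The ratio of CPM + 5 for Top2a was 0.122 in monocytes, 0.353 in B cells and 0.533 in pDCs, and in pDCs Stmn1 (0.562) and Pclaf (0.565) were also within the fold, while Birc5 (0.131) was past it. The metallothioneins Mt1 and Mt2, which bind zinc and copper, were also low in high-fat diet, with Mt2 in 77 of 80 control and 4 of 72 high-fat diet cells (0.0181, 0.00491 to 0.0467). The acute-phase gene Saa2 had a ratio of 0.0519. In B cells the ratio of CPM + 5 was 0.00838 for Mt2 and 0.0216 for Saa2. Other extreme ratios came from single cells. Ighg3 (269 UMIs), Jchain (102 of 104), Ngp (48) and Camp (56) each rested on 1 high-fat diet cell, and Acta2 (151 of 151), Myh11 (76) and Tagln (116 of 117) on 1 control cell.

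In CCl4, 21 cells and 55297 UMIs limit what can be seen, since 3 UMIs amount to 54.3 CPM. Several activation and maturation genes found in control had no UMI there. A gene with 0 UMIs in CCl4, here and elsewhere, passed the low-count filter through control alone. Such a gene can only be lower in CCl4, so its values and limits describe the gene and test nothing. Cd69, an early activation marker, had 78 UMIs in control and 0 in CCl4 (upper limit of the ratio 0.373), Cxcl9 62 and 0 (0.473), and Cxcl10 54 and 0 (0.545). For Ccr7, the receptor that leads mature dendritic cells to lymph nodes, 28 and 0 UMIs allow a ratio up to 1.09, and for Ccl22 22 and 0 UMIs up to 1.41. Many control UMIs lay in 1 cell, 31 of 78 for Cd69, 49 of 62 for Cxcl9 and 19 of 54 for Cxcl10. Cd69 was also lower in the other classes, with ratios of CPM + 5 of 0.237 in monocytes, 0.210 in B cells and 0.515 in pDCs. For Cxcl9 these ratios were 0.660, 4.14 and 2.33 and for Cxcl10 0.215, 1.63 and 0.178, in the same order. Of 7 mature dendritic cell genes tested, 5 were past the fold downwards and none upwards, but each of the 5 (Ccr7, Ccl22, Samsn1, Cd80 and Cd86) had 0, 1 or 2 UMIs in CCl4 and an interval of the ratio that included 1, so no difference was detectable in them at this depth. Bcl11a, a transcription factor of lymphoid and plasmacytoid cells, had 99 UMIs in 37 of 80 control cells and 0 in CCl4 (upper limit 0.293), against ratios of CPM + 5 of 0.772 in monocytes, 0.611 in B cells and 0.445 in pDCs. Kit, a growth factor receptor of progenitors, had 32 UMIs in 19 control cells and 0 in CCl4 (upper limit 0.942).

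In CCl4 cDCs 6 of 12 genes shared by cDCs, 4 of 9 class II pathway genes and 7 of 17 immediate-early and heat shock genes were past the fold downwards, against 29.8% of all genes. None of the shared or immediate-early and heat shock genes was past it upwards. Cst3 stood at 1917 CPM against 4579 in control (0.419, 0.341 to 0.509), Spi1, which codes for the transcription factor PU.1, at 90.4 against 337.8 CPM (0.268, 0.0856 to 0.639), Ctss at 253 against 687 CPM (0.368, 0.199 to 0.628) and H2-DMa at 163 against 419.9 CPM (0.388, 0.174 to 0.753). In monocytes of the same libraries the ratio of CPM + 5 was 0.599 for Cst3, 0.576 for Spi1, 0.872 for Ctss and 0.336 for H2-DMa. In B cells it was 0.767, 0.411, 0.304 and 0.712 and in pDCs 0.652, 0.313, 0.444 and 0.524 for the same genes, so Spi1 and Ctss were also low in these classes. Hspa1a, an inducible heat shock gene, had 114 UMIs in 28 control cells and 0 in CCl4, with ratios of CPM + 5 of 0.401 in monocytes, 0.238 in B cells and 0.276 in pDCs. Hsp90aa1 had a ratio of 0.238 (0.118 to 0.431) in cDCs and of 0.181, 0.255 and 0.264 (CPM + 5) in monocytes, B cells and pDCs. Ccl4 had a ratio of 0.238 (0.162 to 0.339), with 0.582, 0.289 and 0.733 (CPM + 5) in monocytes, B cells and pDCs.

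**Figure D5:**
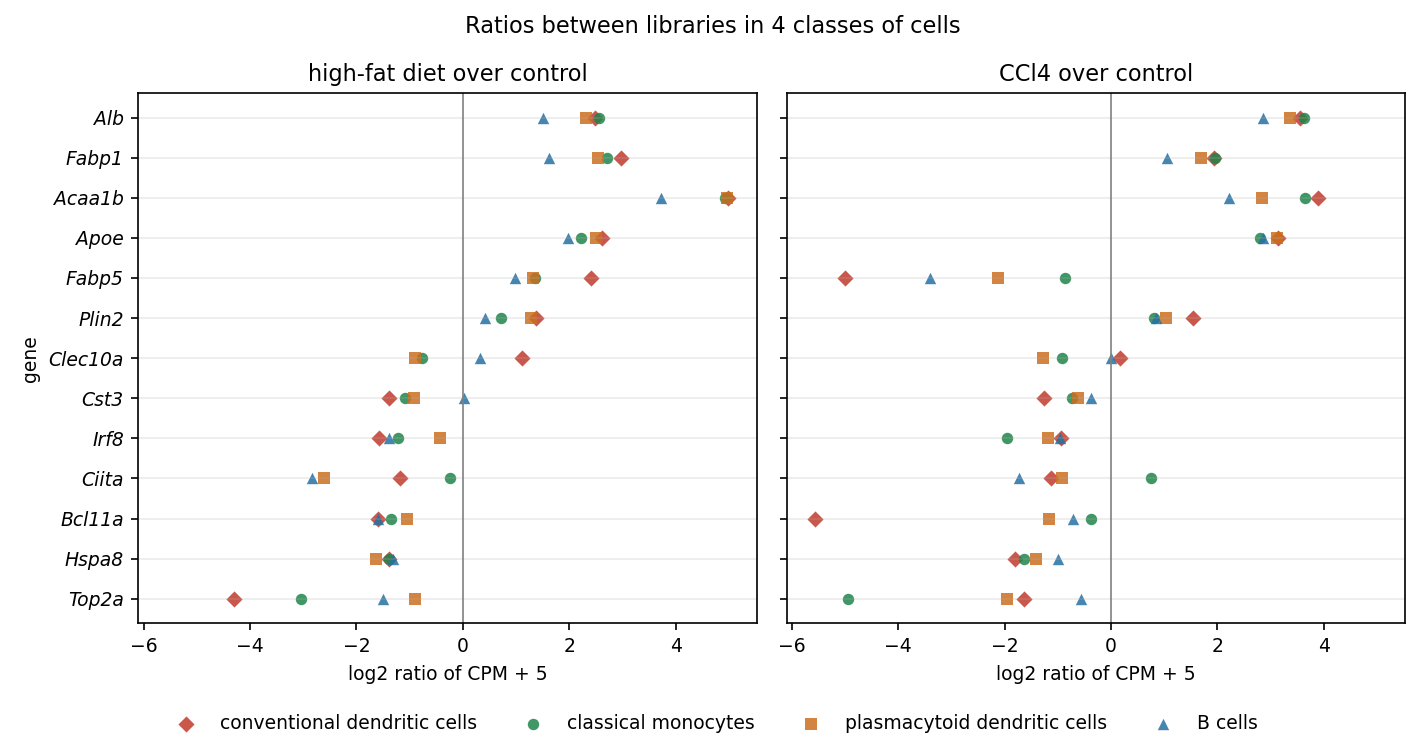
Log2 ratios of CPM + 5 (horizontal axis) of high-fat diet over control (left) and CCl4 over control (right) for named genes in cDCs (red diamonds), classical monocytes, pDCs and B cells. Hepatocyte-linked genes (Alb, Fabp1, Acaa1b, Apoe) lie to the right in all 4 classes, and for Clec10a the cDCs in high-fat diet lie right of monocytes and pDCs, with ratios of 2.16 against 0.584 and 0.535.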

How the data were processed

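UMI counts per gene and barcode were deposited by the authors as filtered Cell Ranger matrices (version 7.2.0 per the file headers), 1 per library, with 55357 gene identifiers. The paper's methods name mm10 as the genome, whereas the submitters' processing notes list GRCm39, so coordinates printed here come from GRCm38 annotation and not from the files. Barcodes were chosen by the rule alone, without clustering. No doublet caller was run. Barcodes with a UMI of the excluded lineage genes were left out, and a setting without cDCs that held a UMI of 8 further lineage genes was tried. The members and the 26 gene lists (312 genes) were chosen with earlier results of these data known.

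Counts were summed per library and class and tested with edgeR 4.0.16 (TMM, filterByExpr, glmQLFit and glmQLFTest with library as a block) in R 4.3.3, with Benjamini-Hochberg adjusted p under 0.05 as the threshold. The library pairs both sums, which come from the same 2 pooled mice. DESeq2 1.42.0 was an alternative. On simulated counts with 4-fold changes, 92.7% of changed genes were recovered in the subset comparison (1562 genes), 90.1% in that with pDCs (4154 genes) and 89.1% in that with monocytes (4756 genes). False calls numbered 7, 6 and 1 in the same order. Conditions have 1 library each and were given as ratios of CPM (pseudocount 5 CPM, at least 50 CPM in 1 library and 20 UMIs together) with exact conditional 95% intervals. Shares have exact Clopper-Pearson intervals, computed with scipy 1.17.1 in Python 3.11.15. Named genes were, by rule, the 12 highest and 12 lowest log2 fold changes among genes that passed with the same sign in all 3 libraries, the 8 highest and 8 lowest condition ratios, the genes of the rule and members of the lists, and the text gives a selection of these, with some genes not reported here. Depth per library ranged from 34061186 to 49613255 UMIs. Alternatives were other normalisation, a looser filter on low counts (at least 1 UMI in 3 sums), stricter rules for the cells, no block and leaving out each library.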

Additional observations from a re-analysis of the deposited data

How the results depend on the processing

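The subset comparison gave 57 calls, against 22 by DESeq2, 8 without the library as replicate block and 15 to 24 with 1 library left out. The pDC comparison gave 701, against 325 by DESeq2, 138 without the block and 330 to 988 with 1 library left out. The monocyte comparison gave 369, against 114 by DESeq2, 24 without the block, 207 to 499 with 1 library left out, 203 with at least 3 dendritic cell UMIs per cDC and 128 with Cd209a-positive cDCs only, a setting chosen after seeing the data. Library size alone, a looser low-count filter (at least 1 UMI in 3 sums) and leaving out cDCs with UMIs of other lineages kept these 3 counts within 1.5 times. Of the 57 subset calls, 56, 24 and 34 were among the calls under these settings, in that order. Without control, high-fat diet and CCl4 the numbers were 12, 12 and 13. Of the 701 and 369 calls against pDCs and monocytes, 538 and 307 were called with the looser filter. Against monocytes, with Cd209a-positive cDCs only, Irf8 (-0.84), Ppt1 (-0.98) and Naaa (-0.61) reversed. Igkc was -0.50 with at least 3 dendritic cell UMIs. S100a8 was -0.0763 by DESeq2 and -9.46 without cDCs with UMIs of other lineages, where S100a9 was -2.95. With 1 library left out, S100a8 ranged from -0.47 (without high-fat diet) to 3.24 and S100a9 from -0.39 (without high-fat diet) to 2.88. The cause was not tested.

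Genes past the fold numbered 1296 in high-fat diet and 1448 in CCl4, against 702 and 843 from at least 100 CPM and 849 and 795 in Cd209a-positive cDCs, settings under which fewer genes were compared. With at least 3 dendritic cell UMIs the cDC share was 0.500%, 0.324% and 0.0470% in control, high-fat diet and CCl4, and without cDCs with UMIs of other lineages it was 0.500% in control. Of barcodes with Ptprc it was 1.41%, 1.37% and 0.574%, and after thinning 0.284%, 0.260% and 0.0824%. The control share of Xcr1/Clec9a-positive cells was 24.9% after thinning. Low depth in CCl4, with 2 Xcr1/Clec9a-positive cells, limits every value of that subset.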

Other observations

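Barcodes just outside the rule were also summed. In control, 46 barcodes met both UMI minimums but held 2 or more Siglech UMIs, and their plasmacytoid list stood at 14191 CPM, their cDC1 list at 3159 CPM and their list of genes shared by cDCs at 2293 CPM. The cDCs of that library stood at 844, 3049 and 6364 CPM. In 3 control barcodes with exactly 1 Siglech UMI the plasmacytoid list stood at 2002 CPM and the cDC1 list at 5712 CPM. Barcodes that met every other criterion with 1 UMI of the 5 dendritic cell genes (31 in control, 62 in high-fat diet and 37 in CCl4) held the shared cDC list at 4420, 2231 and 2817 CPM, against 6364, 2902 and 2767 CPM in cDCs. Their monocyte list stood at 3770, 2892 and 2064 CPM, against 3101, 2571 and 1845 CPM, and their Kupffer cell list at 987, 253 and 0 CPM, against 310, 21.8 and 36.2 CPM.

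Ccr7, which marks mature dendritic cells, was detected in 8 control, 4 high-fat diet and no CCl4 cDCs. The 4 high-fat diet cells held 1411 of the 1469 UMIs of the B cell list, and 61.6% of control B cells held a Ccr7 UMI. Tlr3, a sensor of double-stranded RNA known from cDC1s, was detected in 11 of 80 control cDCs, 7 of them among the 24 Xcr1/Clec9a-positive cells (thinned shares of Tlr3 4.401% and 10.4%). Tlr4, the lipopolysaccharide receptor, was detected in 1 of 80 control cDCs and in none of the other two libraries, and in 15 of 166 control monocytes (thinned shares of Tlr4 in control 0.408% and 2.79%).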
